A study of Canis lupus familiaris with 36 samples.

Results

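The miR-125 and miR-99/100 families were followed in 12 cardiac small RNA libraries of dogs, 6 from cardiac hemangiosarcoma (HSA), a malignant tumor of endothelial cells, and 6 from non-neoplastic hearts of dogs taken at necropsy. The members were the mature miRNAs named cfa-miR-125a, cfa-miR-125b, cfa-miR-99a, cfa-miR-99b and cfa-miR-100, taken from the count table by name, with the entry of the highest total where a name had several. Entries for 4 of these 5 were used, out of 453 mature miRNAs in the table, and miR-100 was not analysed here. All libraries came from formalin-fixed, paraffin-embedded (FFPE) whole tissue, each from a separate dog, and neither age nor breed was given in the labels. Among its limits the study names that prior chemotherapy was no reason for exclusion and that the dogs with HSA were older than the controls, so age and disease cannot be told apart here. The titles of the samples set the groups. The treatment field of the labels names the opposite condition for every cardiac library, and all directions below rest on the titles. Of the 36 samples in the series, the 24 splenic ones were not analysed here.

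Both families are among the oldest miRNAs of animals. miR-125 is the vertebrate counterpart of lin-4, the first miRNA described, which times larval development in the worm, and the miR-99/100 family is related to miR-10. In vertebrates members of the 2 families lie in clusters with a let-7 miRNA between them, and the miRNAs of a cluster can be cut from a shared primary transcript. miR-125b is known for targeting the p53 pathway and pro-apoptotic genes and for roles in blood cell development, miR-125a for restraining inflammatory signalling, and miR-99a, miR-99b and miR-100 for targeting the kinase mTOR and the IGF1 receptor. The canine gene table of the UU_Cfam_GSD_1.0 assembly was used only for the order of genes, because the counts were made on CanFam3.1. Distances between genes were not compared, so neighbours below are neighbours by order alone. With only miRNA genes kept, the gene table lists 3 such loci. MIR125A, MIRLET7E and MIR99B are neighbours in one, MIR99A-1, MIRLET7C and MIR125B-2 in another, and MIR99A-2, MIRLET7A-2 and MIR125B-1 in the third. Mature miR-99a and miR-125b therefore each have 2 loci, whose mature reads the counts cannot separate. The 2 entries of miR-99a were identical, and those of miR-125b differed by 0.122 to 0.629% of counts in a library.

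All 4 measured members were lower in cardiac HSA than in control heart, and the 2 miR-125 miRNAs were lower by a larger factor than the 2 miR-99 miRNAs. In edgeR's quasi-likelihood test over all miRNAs, miR-125a was 3.42-fold lower in HSA, miR-125b 3.36-fold, miR-99a 2.05-fold and miR-99b 1.98-fold. A miRNA was called changed at a Benjamini-Hochberg adjusted p under 0.01 together with a log2 fold change of 1 or more in either direction. By that rule 3 of the 4 members were called lower, and miR-99b passed the p threshold but missed the fold threshold. Over all 225 mature miRNAs tested, 58 (25.8%) were called in either direction and 16 (7.11%) were called lower. Every HSA library was below every control library for all 4 members, a pattern found in 24 (10.7%) of the miRNAs tested. The levels are CPM, the reads of a miRNA scaled to a common library total, further scaled by TMM factors, which correct for a few very abundant miRNAs taking up a library.

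miR-125a ranged from 14625 to 22425 CPM in control heart, with a median of 19444, and in HSA from 2878 to 7444 CPM, with a median of 5693. The groups did not overlap, and the highest HSA library, HSA 6, lay well under the lowest control library, control 2. The mean was 18881 ± 2990 CPM in control and 5518 ± 1972 CPM in HSA (SD, n = 6 each). Its log2 fold change was -1.77 (SE 0.25, 95% interval -2.32 to -1.23, edgeR adjusted p = 0.000935). This was the 5th lowest of the 225 log2 fold changes.

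miR-125b, the member with the most reads in all 12 libraries but HSA 1 and HSA 4, ranged from 28988 to 38909 CPM in control, with a median of 32470, and from 5460 to 16722 CPM in HSA, with a median of 8639. The groups were again separate. The means were 32893 ± 3338 CPM in control and 9778 ± 4451 CPM in HSA (SD, n = 6 each), and the log2 fold change was -1.75 (SE 0.28, 95% interval -2.36 to -1.15, edgeR adjusted p = 0.000965), the 6th lowest. By reads it ranked 10th in each control library, whereas its rank ran from 14 to 23 in HSA.

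miR-99a ranged from 15486 to 20204 CPM in control, with a median of 17816, and from 4888 to 11512 CPM in HSA, with a median of 9006. HSA 4 and HSA 6 came closest to the controls. The mean was 17627 ± 1851 CPM in control and 8595 ± 2817 CPM in HSA (SD, n = 6 each). Its log2 fold change of -1.04 lay just past the threshold (SE 0.22, 95% interval -1.52 to -0.55, edgeR adjusted p = 0.00384), and the interval takes in values on either side of -1.

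miR-99b had the fewest reads of the members. It ranged from 2733 to 3954 CPM in control, with a median of 3137, and from 1066 to 2298 CPM in HSA, with a median of 1540. The means were 3231 ± 494 CPM in control and 1629 ± 470 CPM in HSA (SD, n = 6 each), without overlap. Its log2 fold change of -0.99 lay just short of the threshold (SE 0.20, 95% interval -1.42 to -0.56, edgeR adjusted p = 0.00271). The fold changes of miR-99a and miR-99b, the 31st and 32nd lowest of the 225, thus fell on opposite sides of the threshold while differing by less than either standard error.

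**Figure D1:**
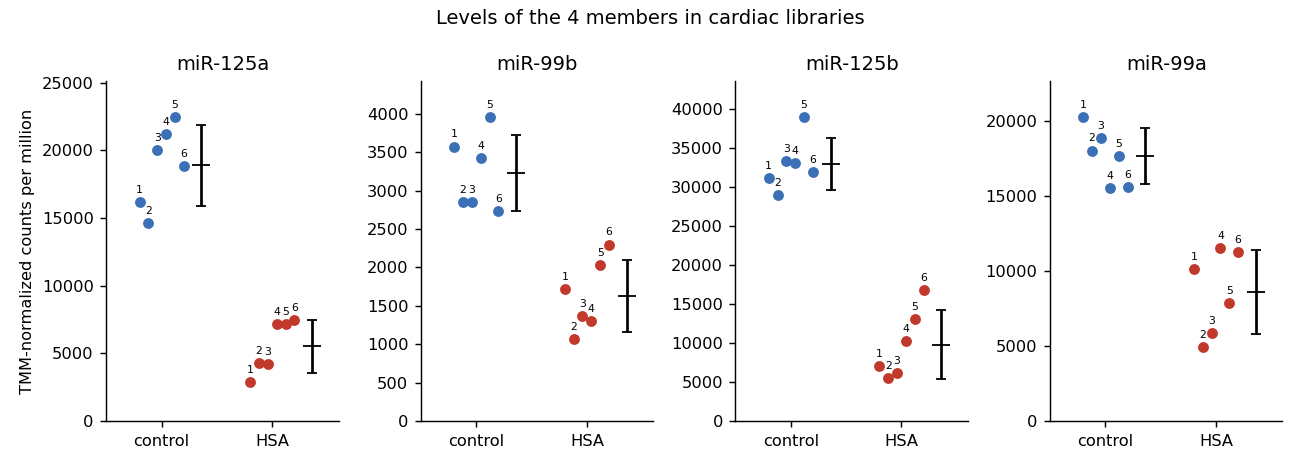
TMM-normalized CPM (vertical axes, linear and starting at 0, scaled per panel) of miR-125a, miR-99b, miR-125b and miR-99a in the 6 control (blue) and 6 HSA (red) libraries. Numbers are replicate numbers, which do not pair dogs between groups, the black bars give mean ± SD, and in each panel every red point lies below every blue point.

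As a share of all counts, with each mature miRNA counted once, the 4 members together took 6.93 to 8.05% of a control library, with a median of 7.61%, and 2.28 to 4.46% of an HSA library, with a median of 4.11%. HSA 3 held the lowest share and control 5 the highest. The lowest count behind any member's value was the 3830 reads of miR-99b in HSA 1, so counting error was small beside the spread between dogs. The share of miR-99b in that library was 0.231% (95% Wilson interval 0.224 to 0.239%, counting error only).

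Levels spread more between dogs in HSA than in control. The coefficient of variation of miR-125b was 10.2% in control and 45.5% in HSA, and that of miR-99b 15.3% and 28.9%. miR-125a went from 15.8 to 35.7% and miR-99a from 10.5 to 32.8%. A wider spread in HSA was general in these libraries, since the median over the 57 tested miRNAs with a mean of at least 1000 CPM was 15.3% in control and 41.9% in HSA.

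The scaling moved the size of the differences. Before TMM, a control library held between 6999830 and 11668822 counts once identical entries were merged, and an HSA library between 2018959 and 8999025. TMM factors lay at 0.769 to 0.889 for the controls, and HSA libraries had 0.948 to 1.96. On the deposited CPM, without TMM, the groups stayed apart for miR-125a (10698 to 15944 CPM in control, 2739 to 7869 CPM in HSA) and for miR-125b (21205 to 26298 and 6672 to 13990 CPM). They overlapped for miR-99a, through HSA 4 at 12685 CPM against a control range of 11657 to 14128 CPM. They also overlapped for miR-99b, through HSA 5 at 2165 CPM against 1976 to 2672 CPM. Scaled by library size only, the edgeR log2 fold changes were -1.22 for miR-125a, -1.25 for miR-125b, -0.52 for miR-99a and -0.46 for miR-99b, and the first 2 were called. That choice also moved the centre of the log2 fold changes, whose median over the tested entries was 0.33 with TMM and 0.90 without it. Relative to this median, miR-125a lay at -2.11 with TMM and at -2.13 without it, miR-125b at -2.08 and -2.15, miR-99a at -1.37 and -1.43, and miR-99b at -1.32 and -1.37.

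**Figure D2:**
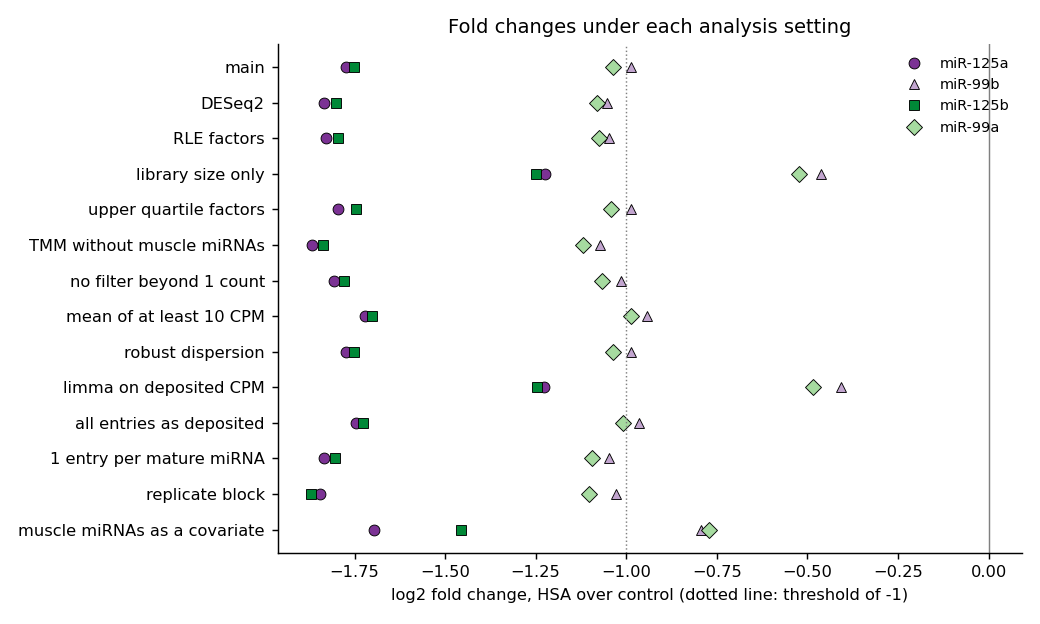
Log2 fold changes of HSA over control (horizontal axis) of the 4 members under the main analysis and 13 other settings that keep all 12 libraries. Every value lies below 0, with miR-125a and miR-125b between -1.87 and -1.22, and miR-99a and miR-99b between -1.12 and -0.41 around the threshold at -1 (dotted line).

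Next, the neighbours in a cluster were compared within each library, as the log2 ratio of their counts. Such a ratio does not depend on library size or on TMM. Counts of different miRNAs are captured with different efficiency, so the ratio itself is not a ratio of molecules, and only its difference between groups is compared. The 6 pairs of the 4 members were tested with a two-sided exact permutation test of 6 against 6 libraries, whose smallest possible p is 0.00216, and adjusted over the 6 pairs at a threshold of 0.05.

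For miR-125a and its cluster neighbour miR-99b, there were 4.52 to 7.04 reads of miR-125a per read of miR-99b in control, with a median of 5.93, and 1.68 to 5.48 in HSA, with a median of 3.39. HSA 4 lay inside the control range, and the other 5 HSA libraries lay below it. The log2 ratio was 2.55 ± 0.25 in control and 1.72 ± 0.56 in HSA (SD), and the difference of -0.82 (SE 0.25) passed the exact permutation test (p = 0.00649, adjusted p = 0.0130). miR-125a thus fell by more than the neighbour with which it shares a cluster.

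The clusters of miR-125b and miR-99a gave the same order. There were 1.54 to 2.21 reads of miR-125b per read of miR-99a in control, with a median of 1.91, and 0.691 to 1.66 in HSA, with a median of 1.08. HSA 5 alone reached into the control range, and in HSA 1 and HSA 4 miR-99a had more reads than miR-125b. The log2 ratio went from 0.90 ± 0.22 to 0.14 ± 0.47 (SD), a difference of -0.76 (SE 0.21, exact permutation p = 0.00649, adjusted p = 0.0130). Since the reads of both loci of each miRNA are pooled, this ratio is not that of a single cluster.

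Across the clusters, miR-125b fell further than miR-99b, with a log2 ratio of 3.36 ± 0.17 in control and 2.51 ± 0.39 in HSA and no overlap between the groups (difference -0.84, SE 0.17, exact permutation p = 0.00216, the smallest possible, adjusted p = 0.0130). miR-125a fell further than miR-99a, with a difference of -0.74 (SE 0.28, exact permutation p = 0.0152, adjusted p = 0.0227).

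Within a family no difference was detected. The log2 ratio of miR-125a to miR-125b was -0.81 ± 0.13 in control and -0.79 ± 0.38 in HSA, a difference of 0.02 (SE 0.16, exact permutation p = 0.907, adjusted p = 0.907). The log2 ratio of miR-99a to miR-99b was 2.46 ± 0.24 in control and 2.38 ± 0.43 in HSA, a difference of -0.08 (SE 0.20, exact permutation p = 0.725, adjusted p = 0.870). With such standard errors, smaller differences within a family would not have been seen. The 4 pairs that set a miR-125 against a miR-99 miRNA thus all passed the test, whether the loci were neighbours or not, and the 2 pairs within a family did not. These 4 are not separate results, since all ratios are built from the same 4 counts of a library. The ratios across clusters follow from those of neighbours and those within a family.

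**Figure D3:**
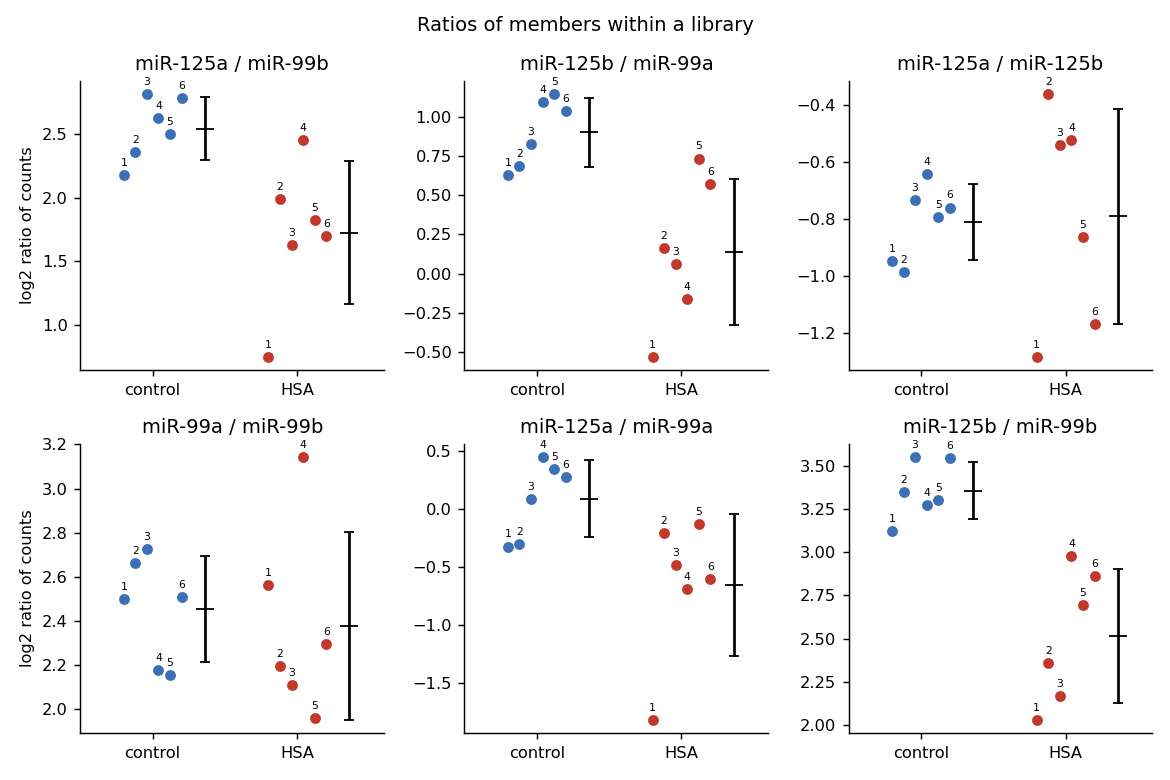
Log2 ratio of the counts of 2 members within a library (vertical axes, which do not start at 0) for the 6 pairs, in control (blue) and HSA (red), with replicate numbers and mean ± SD as black bars. The 4 ratios of a miR-125 to a miR-99 miRNA are lower in HSA, by -0.74 to -0.84 on average, and the 2 ratios within a family are centred near the control mean.

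With all libraries, none of the let-7 miRNAs of the clusters was called. let-7e, which lies between miR-125a and miR-99b, had 2762 ± 351 CPM in control and 2784 ± 867 CPM in HSA (SD, n = 6 each), with a log2 fold change of 0.01 (SE 0.19, edgeR adjusted p = 0.964). let-7c, of the miR-99a and miR-125b-2 cluster, had 8247 ± 862 and 5671 ± 2272 CPM, with a log2 fold change of -0.54 (SE 0.22, edgeR adjusted p = 0.0656). let-7a, which has loci beyond these clusters, had 61157 ± 5890 and 55098 ± 17901 CPM, with a log2 fold change of -0.15 (SE 0.21, edgeR adjusted p = 0.572). In HSA 4 let-7c stood at 10137 CPM, above all controls, and without that library its log2 fold change was -1.06 and called. Without HSA 4, let-7e was at -0.44 (edgeR adjusted p = 0.0358) and let-7a at -0.60 (edgeR adjusted p = 0.0284), neither called. The signs depended on the scaling. Scaled by library size only, let-7e was at 0.59, let-7a at 0.40 and let-7c at 0.01, none of them called. let-7a and let-7c thus changed sign, whereas let-7e did not. With median-of-ratios factors let-7e was at -0.045 and not called.

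Ratios to let-7 were added after the counts had been seen and adjusted over 4 pairs. Within a cluster their order restates the ratios of neighbours above, since the difference of 2 ratios to the same let-7 is the ratio of the neighbours, so they add only how far each member moved against let-7. The log2 ratio of miR-125a to let-7e was 2.77 ± 0.19 in control and 0.95 ± 0.50 in HSA, without overlap, a difference of -1.82 (SE 0.22, exact permutation p = 0.00216, the smallest possible, adjusted p = 0.00866). For miR-99b to let-7e the difference was -0.996 (SE 0.29, exact permutation adjusted p = 0.0115). For miR-125b to let-7c it was -1.26 (SE 0.30, exact permutation adjusted p = 0.0115). miR-99a to let-7c, at -0.49 (SE 0.23, exact permutation adjusted p = 0.0563), did not pass, although it did without HSA 1, HSA 6, control 4 or control 6 (lowest adjusted p = 0.0130, without HSA 6).

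Of the relatives of the miR-99/100 family, miR-10a, which lies among the HOX genes, was higher in HSA, with a log2 fold change of 3.09 (SE 0.71, edgeR adjusted p = 0.00461). This rested in part on HSA 4, without which the log2 fold change was 1.97 and not called (edgeR adjusted p = 0.0132). Leaving out a single control, whichever of the 6, ended the call too (edgeR adjusted p = 0.0104 to 0.0128), as did the muscle covariate described below (1.91, adjusted p = 0.144) and the replicate block (2.52, adjusted p = 0.0197), the direction staying the same. Its levels overlapped, at 439 to 1596 CPM in the controls against 989 to 24941 CPM in HSA. miR-10b had a log2 fold change of 0.09 (SE 0.35, edgeR adjusted p = 0.841), and of -0.62 without HSA 4 (edgeR adjusted p = 0.0653).

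**Figure D4:**
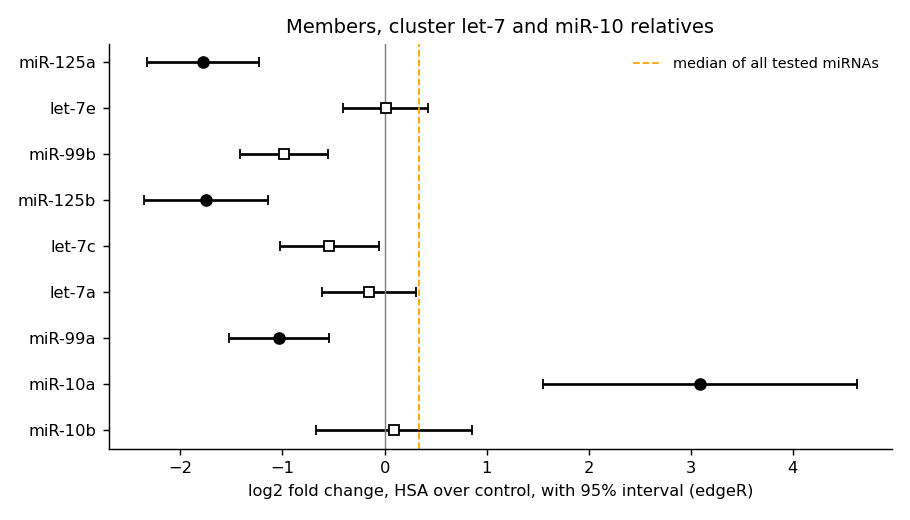
Log2 fold change of HSA over control with its 95% interval (horizontal axis, edgeR) for the members, the let-7 miRNAs of their clusters and miR-10a and miR-10b. Filled circles were called and open squares were not; the members lie between -1.77 and -0.99, let-7e is at 0.01 and the dashed line marks the median of all tested mature miRNAs at 0.34.

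Bulk tissue was sequenced, so fewer cells of a type and less RNA per cell cannot be told apart. The tissue labels were set against marker miRNAs. The 8 muscle miRNAs, such as miR-1, miR-133a and miR-499, had a median log2 fold change of -1.24 and none was called. Their summed share, without miR-133c, whose reads are those of miR-133a, was 13.5 to 19.3% of counts in control. In HSA it was 17.5% in HSA 1, 3.33% in HSA 2, 0.0892% in HSA 3, 3.77% in HSA 4, 9.09% in HSA 5 and 19.0% in HSA 6. HSA 3 thus held almost no heart muscle miRNA. It also held 204210 CPM of miR-122, a liver miRNA, against at most 477 CPM in any other library. The bearing of miR-122 on the low share of the members in HSA 3 was not tested. HSA 1 and HSA 6 lay within the control range of the muscle share, but not for every muscle miRNA. In these libraries miR-208b, at 67.7 and 68.2 CPM, was below every control. miR-133b, at 1106 and 799 CPM, was above every control. In HSA 1 alone, miR-499 was below every control, at 17579 CPM. The low-count miR-208a was above every control in HSA 1, at 25.1 CPM, and at 0 in HSA 6.

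The members were low in those 2 libraries as well. miR-125a stood at 2878 CPM in HSA 1, the lowest of all 12 libraries, and at 7444 CPM in HSA 6, against at least 14625 CPM in control. miR-125b was at 7009 and 16722 CPM, miR-99a at 10137 and 11275 CPM, and miR-99b at 1716 and 2298 CPM, each below the lowest control. A covariate in edgeR was the mean log2 level of all 8 muscle miRNAs, here with miR-133c, so that the reads of miR-133a entered again. Each miRNA had the same weight, also miR-208a, at 0 in HSA 3, HSA 4, HSA 5 and HSA 6, and miR-208b, at 0 in HSA 3. The covariate is therefore not the summed muscle share. With this covariate, the log2 fold change of miR-125a was -1.70 and still called. That of miR-125b was -1.46 (adjusted p = 0.0108), of miR-99a -0.77 and of miR-99b -0.79, none of them called.

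Markers of other cell types differed as well. The 6 blood cell miRNAs had a median log2 fold change of 1.96, with 4 called higher and 0 lower. miR-486, also of that list, went the other way, at -1.33 without overlap but not called (edgeR adjusted p = 0.0205). Its other arm, miR-486-3p, was not in the list and was called lower, at -2.75 without overlap (edgeR adjusted p = 0.000935). miR-486 and miR-451 carry most of the reads of the list and so set most of its summed level. That level was 21079 to 30232 CPM in control, with a median of 29195. In HSA it was 6354 to 49628 CPM, with a median of 21177. Of the 7 epithelial miRNAs 3 were tested and 2 were called higher. The summed level of all 7 was 7.74 to 20.8 CPM in a control library and 43.1 to 3282 CPM in an HSA library. The endothelial miR-126 had a log2 fold change of -0.45 and was not called (edgeR adjusted p = 0.328). No listed marker was at 0 in every library. The part of blood or epithelial cells in the levels of the members was not tested.

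**Figure D5:**
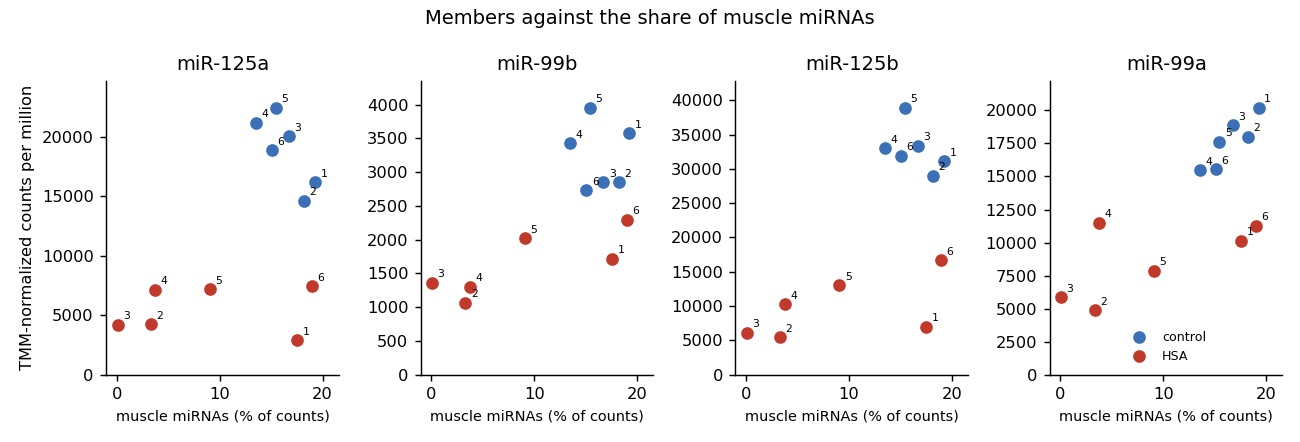
TMM-normalized CPM of each member (vertical axes, starting at 0) against the share of counts taken by muscle miRNAs (horizontal axis, percent, without miR-133c) in control (blue) and HSA (red), with replicate numbers. HSA 1 and HSA 6, at 17.5 and 19.0% muscle miRNAs, lie below every control in all 4 panels.

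Finally, it was asked which miRNAs varied most like each member between dogs of the same group. For this the mean of each group was subtracted from the log2 levels, and Pearson's r was taken over the 12 libraries with each of the 224 other miRNAs tested, as a description without a test, since the libraries share their scaling. miR-125b was the closest to miR-125a, at r = 0.807, followed by miR-197 at 0.683 and miR-10b at 0.633. Closest to miR-125b were miR-486-3p at 0.886, miR-1249 at 0.858 and miR-30c at 0.838, with miR-125a in 4th place. For miR-99a the closest were miR-374b at 0.918, miR-30a at 0.896 and miR-30c at 0.813, and for miR-99b they were miR-504 at 0.911, miR-30c at 0.872 and miR-26a at 0.855. The median r over all others lay between -0.0951 and 0.00218 for the 4 members.

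Cluster neighbours were not each other's closest miRNAs. miR-99b was 32nd of 224 for miR-125a (r = 0.382), and miR-99a was 16th for miR-125b (r = 0.648). Unlinked miR-125b and miR-99b were closer to each other, at r = 0.773. Within a group of 6, no neighbour pair passed an exact permutation test over 8 relations. For miR-125a and miR-99b, Pearson's r was 0.406 in control (exact permutation p = 0.419) and 0.378 in HSA (exact permutation p = 0.450), and Spearman's rho was 0.543 (p = 0.297) and 0.486 (p = 0.356). Without the 2 libraries farthest from the median of miR-125a, r was 0.969 in control and 0.642 in HSA. For miR-125b and miR-99a, r was -0.116 in control (exact permutation p = 0.853) and 0.699 in HSA (exact permutation p = 0.131), rho was -0.257 (p = 0.658) and 0.714 (p = 0.136), and r without the 2 farthest libraries was -0.313 and 0.356. Adjusted p-values ran from 0.544 to 0.853.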

How the data were processed

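The authors ligated adapters to FFPE total RNA, used Cutadapt for trimming, Bowtie for alignment to CanFam3.1, miRBase for annotation and HTSeq for counting. The labels name a QIAseq kit and the methods a NEXTflex kit for cardiac libraries, and removal of PCR duplicates is not given for them in the sources used here. The deposited counts are raw reads per mature miRNA and precursor, and the deposited CPM are those counts scaled to a common total, recomputed here to within 0.00499. Of 517 entries, 43 identical in name and counts were merged.

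Counts were tested with edgeR 4.0.16 in R 4.3.3 (quasi-likelihood, TMM, filterByExpr, Benjamini-Hochberg over 244 entries, 225 mature miRNAs). Ratios used a pseudocount of 0.5 counts and scipy 1.17.1. Alternatives included DESeq2 1.42.0 and limma 3.58.1 on log2 of the deposited CPM plus 1. Tests were tried on simulated data. Named miRNAs were the members, cluster let-7 miRNAs, miR-10a, miR-10b, the 3 closest to each member and some markers. miR-122 was named after its level in HSA 3 had been seen. Members, lists and tests were chosen with earlier results of these data known. Of the 10 planned pairs, the 6 without miR-100 were tested. Within each group, no library was a duplicate of another.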

Additional observations from a re-analysis of the deposited data

Results flagged for a closer look

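Dixon's test at the 95% level was applied to 30 groups of 6 libraries, and 6 held a library far from the others, where chance alone gives about 1 in 20. Of these, 4 concern HSA 4, whose highest values were 10137 CPM for let-7c, 89615 CPM for let-7a, 24941 CPM for miR-10a and 33566 CPM for miR-10b. miR-10b was also high in control 4, at 17151 CPM. The log2 ratio of miR-125a to miR-99a was lowest in HSA 1, at -1.82. No level of a member stood apart in this way.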

How the results depend on the processing

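All 4 members were lower in HSA in each of 14 settings that kept all libraries and each of 12 that left 1 out. miR-125a was called in all 26, and its log2 fold change ran from -1.87 to -1.22, and from -2.10 to -1.71 with 1 library left out. miR-125b was called in all but the fit with muscle miRNAs as a covariate (-1.46), which left 1 of the 4 members called, and ran from -1.98 to -1.65 with 1 library left out. miR-99a lost its call with library size only (-0.52), limma (-0.48), a mean of at least 10 CPM (-0.99), the muscle covariate (-0.77) and the replicate block (-1.10). With 1 library left out it ran from -1.35 to -0.95 and lost its call without control 1 (adjusted p = 0.0109), control 5 (adjusted p = 0.0101), HSA 2 (-0.97) or HSA 3 (-0.95). miR-99b was called with DESeq2 (-1.05), median-of-ratios factors (-1.05), TMM without muscle miRNAs (-1.07), 1 entry per mature miRNA (-1.05) and no filter beyond 1 count (-1.02). With 1 library left out it ran from -1.24 to -0.93, called in 7 of 12. The cause of these changes was not tested.

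With the replicate block, the log2 fold changes were -1.84 for miR-125a, -1.87 for miR-125b, -1.10 for miR-99a and -1.03 for miR-99b, and 6 miRNAs were called in place of 58. Equal numbers did not pair the dogs (correlations of deviations -0.259 to 0.0258). Calls were 22 lower and 52 higher with DESeq2, 5 and 68 with library size only, 5 and 53 with limma and 3 and 6 with the muscle covariate, against 16 and 42.

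With 1 library left out, the ratio of miR-125a to miR-125b ran from -0.0654 to 0.119 and that of miR-99a to miR-99b from -0.231 to 0.00629, both changing sign. The other differences ran from -0.97 to -0.63 for miR-125a to miR-99b, -0.88 to -0.63 for miR-125b to miR-99a, -0.85 to -0.51 for miR-125a to miR-99a and -0.93 to -0.74 for miR-125b to miR-99b, and all passed. Each member had at least 3830 reads in every library. Age, prior treatment and cell content were not adjusted for, apart from the muscle covariate.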
